A study of Mus musculus with 30 samples.

Results

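Cyp4a10 was followed as 1 probe set of the 12488 in the table, and this probe set had a value on all 30 arrays. It was taken by its ID, MG_U74Av2.92600_F_AT (the Affymetrix mouse array, then the probe set), which the selection rule assigns to Cyp4a10. The rule itself names no measured value, but the probe set was chosen with earlier results of these data known. The ending F_AT of the ID marks a family-type design on these arrays, in which some probes also match related transcripts, so the signal may hold other Cyp4a transcripts as well. In the RefSeq gene table of assembly GRCm38.p6, Cyp4a14 and Cyp4a31 are the protein-coding genes directly on either side of Cyp4a10, in a row with Cyp4a29, Cyp4a12a, Cyp4a12b, Cyp4a30b and Cyp4a32. The table used here pairs no probe set with a gene, so the name was not checked against a second source, other Cyp4a genes were not traced, and the liver label was not checked against hepatocyte markers.

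Each array held RNA from the liver of 1 male C57Bl/6 mouse. The compounds were CP-775146, CP-868388 and CP-865520, piperidine agonists of PPAR-alpha in the words of the series, each given at a daily dose of 1 mg/kg. Vehicle mice received water. Treatment lasted 24 h or 5 days. There were 4 arrays in each of the 8 groups, except that CP-775146 at 5 days had 2, and the labels name no other difference between the groups. No age is given in the sources used here. Values are intensities on a linear scale, and their mean over an array lay between 314.1 and 318.2. The lowest value in the table is 50, the floor, and 0 of the 30 values of the Cyp4a10 probe set lay on it.

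CYP4A enzymes are cytochrome P450 proteins of the endoplasmic reticulum that hydroxylate medium- and long-chain fatty acids at the omega end, the first step of their conversion to dicarboxylic acids. PPAR-alpha binds response elements as a heterodimer with the retinoid X receptor, and the Cyp4a genes are among its classic targets in rodent liver. Peroxisome proliferators and fasting both raise hepatic Cyp4a transcripts. In whole liver, a change in the share of expressing cells and a change in RNA per cell cannot be told apart.

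The Cyp4a10 probe set was higher under each of the 3 agonists at both times. In vehicle livers at 24 h it read 1720, 1121, 1489 and 569 on replicates 1 to 4, a mean of 1225 ± 502 (SD, n = 4). CP-775146 at 24 h gave 5274, 4320, 5031 and 4072, a mean of 4674 ± 570.1 (SD, n = 4). CP-868388 at 24 h gave 3428, 4367, 3407 and 3753, a mean of 3739 ± 448 (SD, n = 4). Every array of both compounds lay above the highest vehicle array. Relative to their mean the vehicle mice differed most among the 24 h groups, while in intensity units their SD was not the largest. CP-865520 at 24 h gave 5733, 4604, 5116 and 6393, a mean of 5461.5 ± 774 (SD, n = 4), again with no overlap with vehicle, and included the highest Cyp4a10 reading of the 30 arrays.

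In vehicle livers at 5 days the probe set read 563, 392, 539 and 711, a mean of 551 ± 131 (SD, n = 4). CP-775146 at 5 days gave 4907 and 2500, a mean of 3703.5 ± 1702 (SD, n = 2). Its replicates lay 1.96-fold apart, and the lower one was the lowest compound array of the series. CP-868388 at 5 days gave 4881, 5657, 3962 and 4269, a mean of 4692 ± 748 (SD, n = 4). CP-865520 at 5 days gave 3903, 4924, 4318 and 4273, a mean of 4354.5 ± 423 (SD, n = 4). No compound array at either time reached down to a vehicle array of the same time.

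**Figure D1:**
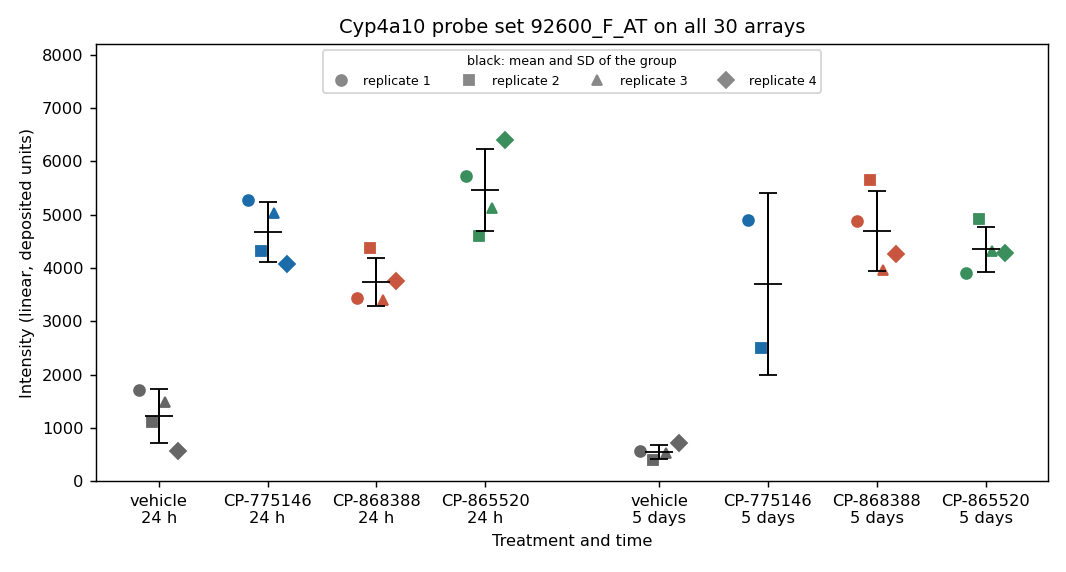
Intensity of the Cyp4a10 probe set on a linear axis, by treatment and time, with 1 point per array, the marker giving the replicate number and black bars the group mean and SD. Compound arrays sit between 2500 and 6393, and vehicle arrays between 392 and 1720.

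At 24 h the ratio of mean intensities to vehicle was 3.82 for CP-775146, 3.05 for CP-868388 and 4.46 for CP-865520. The added 50 of the log2(intensity + 50) scale slightly shrinks a fold. This scale also averages logs, and its folds at 24 h lay above the ratios of means. On it CP-775146 raised the probe set by 1.99 ± 0.23 (SE, n = 4 and 4, limma adjusted p = 3.40e-07). This corresponds to 3.96-fold, with a 95% interval from 2.85 to 5.50. CP-868388 raised it by 1.67 ± 0.23 (adjusted p = 2.42e-06), or 3.18-fold with an interval from 2.29 to 4.42. CP-865520 raised it by 2.21 ± 0.23 (adjusted p = 7.07e-08), or 4.62-fold with an interval from 3.32 to 6.41. All 3 calls were made against the same vehicle arrays. Of the 7963 probe sets tested, 7.36%, 12.4% and 8.93% were called higher in these comparisons, and in 9.05%, 11.3% and 10.3% every compound array lay above every vehicle array.

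At 5 days the ratio was 6.72 for CP-775146, 8.51 for CP-868388 and 7.90 for CP-865520. The rise under CP-775146 was 2.59 ± 0.28 on the log2(intensity + 50) scale (SE, n = 2 and 4, limma adjusted p = 7.95e-08), or 6.02-fold with a 95% interval from 4.03 to 9.01. Under CP-868388 the rise was 2.99 ± 0.23 (adjusted p = 1.28e-10), or 7.96-fold with an interval from 5.73 to 11.1. Under CP-865520 it was 2.89 ± 0.23 (adjusted p = 1.54e-10), or 7.44-fold with an interval from 5.35 to 10.3. Here 12.3%, 14% and 15.3% of all probe sets were called higher, and 14.6%, 12.5% and 13.4% had compound arrays that all lay above vehicle.

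A call alone was thus common among the probe sets, and it is the size of the rise that placed Cyp4a10 near the top. By log2 difference the probe set ranked 19 of 7963 from the top for CP-775146 at 24 h, 27 for CP-868388 and 10 for CP-865520. At 5 days it ranked 17, 9 and 11 in the same order. The share of probe sets that rose by at least 1 on this scale was between 0.992% and 3.32% in these 6 comparisons. These ranks describe comparisons that share vehicle arrays and are not separate tests. The ranks and the share also depend on the added 50, which shrinks the fold of a dim probe set more than that of Cyp4a10. On the floor of 50 lay 50.3% of all values in the table.

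**Figure D2:**
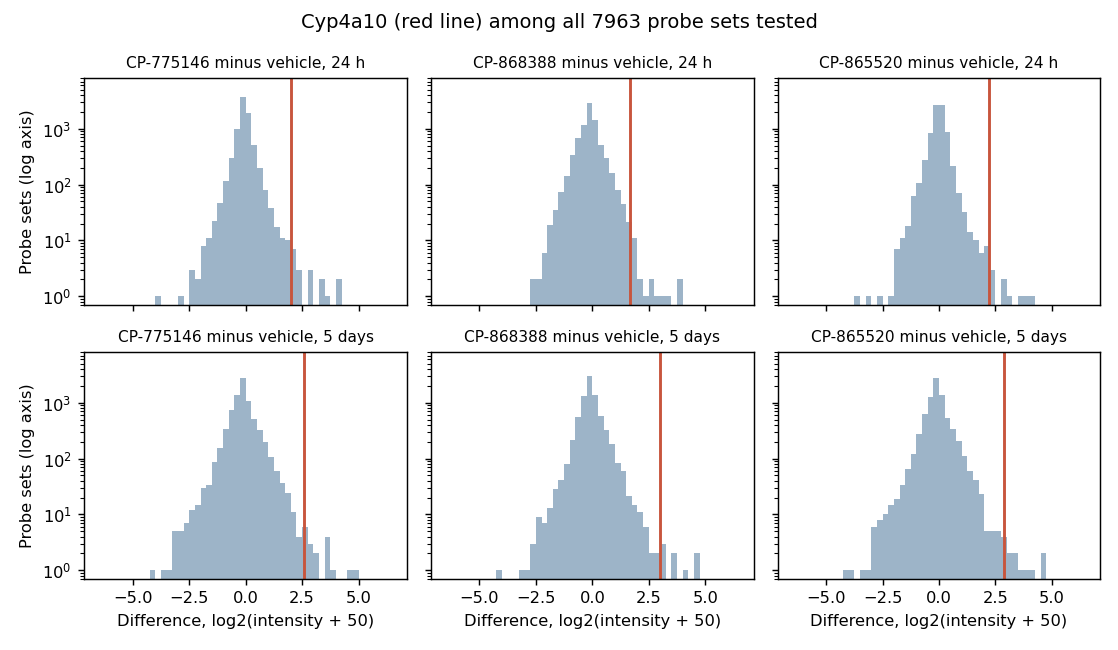
Number of probe sets, on a log axis, by their difference from vehicle on the log2(intensity + 50) scale, in 1 panel per compound and time, with the Cyp4a10 probe set as a red line. The line stands at 1.99, 1.67 and 2.21 in the 24 h panels and at 2.59, 2.99 and 2.89 in the 5-day panels, inside the right tail but short of its end.

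Exact two-sided permutation tests over the arrays of the probe set alone gave p = 0.0286 for each compound against vehicle except CP-775146 at 5 days, the smallest p that 4 arrays against 4 can give. Benjamini-Hochberg adjustment over the 6 comparisons made it 0.0343. With 2 arrays against 4, CP-775146 at 5 days gave an exact p = 0.133, the smallest that this size allows.

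Signs of RNA quality moved with several of these rises. Control probe sets for Gapdh, beta-actin and pyruvate carboxylase read the 5' and the 3' end of their transcript, and the log2 ratio (5' over 3') drops when RNA is degraded or copied incompletely. At 24 h the actin ratio was between -0.80 and -0.76 under CP-775146 and between -1.36 and -0.95 under CP-868388, below all vehicle arrays (-0.71 to -0.44). Under CP-868388 the Gapdh and pyruvate carboxylase ratios were below all vehicle arrays as well, and under CP-865520 each of the 3 ratios overlapped vehicle. At 5 days the pyruvate carboxylase ratio was between -1.95 and -1.65 under CP-868388 and between -2.24 and -1.67 under CP-865520, below all vehicle arrays (-1.57 to -1.26). CP-865520 at 5 days also lay below vehicle in the actin ratio, and the 2 CP-775146 arrays overlapped vehicle in all 3. With the mean of the 3 standardised ratios as a covariate the rises were 2.02, 1.86 and 2.26 at 24 h and 2.64, 3.01 and 2.99 at 5 days, for CP-775146, CP-868388 and CP-865520, with limma adjusted p-values up to 9.75e-05. Where groups do not overlap in these ratios, as for CP-868388 at 24 h, the covariate cannot separate integrity from treatment.

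The 3' control probe set of 18S rRNA also separated compound from vehicle arrays at 5 days. It read 411 to 1073 under CP-868388 and 243 to 1023 under CP-865520, against 1660 to 1919 under vehicle, while CP-775146, at 1230 and 1680, overlapped vehicle. At 24 h all 3 compounds overlapped vehicle in this control. Its part in the 5-day rises was not tested.

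The spread within the groups was uneven. Vehicle livers at 24 h covered a 3.02-fold range, with an SD of 0.67 on the log2(intensity + 50) scale. In that group this SD was larger than that of 99.7% of all tested probe sets. It was also larger than that of 98.3% of the 415 probe sets within 1 log2 unit of its mean brightness. That brightness was taken over all 30 arrays and not within the group. Replicate 4 of that group, at 569, lay inside the range of the 5-day vehicle arrays, while the other 3 lay above it. In the 5 compound groups of 4 arrays the SD was between 0.14 and 0.22. The test estimates 1 spread for the probe set over all 30 arrays. Fitted without the other groups, the SE of 0.23 became 0.34 for vehicle between times and 0.12 for CP-868388 against CP-865520 at 24 h. For the 24 h rises over vehicle it became 0.32, with limma adjusted p-values of 0.00630 (CP-775146), 0.00770 (CP-868388) and 0.00560 (CP-865520). The 24 h intervals given above are thus narrower than those groups alone would give. For the 5-day rises the SE became 0.34, 0.18 and 0.16 in the same order.

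In order of mean intensity the groups ran from vehicle at 5 days (551) and vehicle at 24 h (1225) to CP-775146 at 5 days (3703.5), CP-868388 at 24 h (3739), CP-865520 at 5 days (4354.5), CP-775146 at 24 h (4674), CP-868388 at 5 days (4692) and CP-865520 at 24 h (5461.5). Only the step from vehicle at 24 h to CP-775146 at 5 days, a ratio of 3.02, separated neighbours whose arrays did not overlap. Among the 6 compound groups the neighbours overlapped at every step, with ratios of means from 1.00 to 1.16.

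The agonists were compared with each other at the same dose and time, in 6 pairs. CP-868388 and CP-865520 lay furthest apart at 24 h, where all 4 CP-868388 arrays (3407 to 4367) were below all 4 CP-865520 arrays (4604 to 6393). The difference was -0.54 ± 0.23 on the log2(intensity + 50) scale (SE, 95% interval -1.01 to -0.06, limma adjusted p = 0.0825), which did not pass the threshold of 0.05. An exact permutation test of that pair gave p = 0.0286, or 0.171 after adjustment over the 6 pairs. In this comparison 27.9% of all probe sets were called in either direction, and in 14.3% every CP-868388 array was the lower.

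RNA integrity moved with that difference too. The Gapdh ratio was -0.36 ± 0.23 (SD, n = 4) under CP-868388 at 24 h and -0.05 ± 0.27 under CP-865520. Under vehicle it was 0.02 ± 0.11. With an integrity covariate the difference was -0.40 (limma adjusted p = 0.390), and without the 3 arrays whose Gapdh ratio was under -0.4 it was -0.34 (0.537). CP-865520 replicate 4 is 1 of those 3 arrays, at a ratio of -0.45, and it held the highest Cyp4a10 reading. The others are CP-868388 replicates 1 and 3, at 3428 and 3407, the lowest of their group. All 3 lay at the far ends of this difference, so leaving them out was bound to make it smaller. When the other groups were left out of the fit the pair passed (adjusted p = 0.0432), as it did after quantile normalization (-0.68, 0.0481).

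None of the other 5 pairs passed. CP-775146 minus CP-868388 at 24 h was 0.32 (95% interval -0.16 to 0.79, limma adjusted p = 0.416), where 16.4% of all probe sets were called. CP-775146 minus CP-865520 at 24 h was -0.22 (-0.69 to 0.25, 0.793), where 0.1% were called. Expressed as folds, these intervals run from 0.897 to 1.73 and from 0.618 to 1.19.

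At 5 days CP-775146 minus CP-868388 was -0.40 (95% interval -0.98 to 0.18, limma adjusted p = 0.799), and 0.0753% of all probe sets were called. CP-775146 minus CP-865520 was -0.30 (-0.88 to 0.28, 1.00), and 0.0251% were called. CP-868388 minus CP-865520 was 0.10 (-0.38 to 0.57, 1.00), with a fold interval from 0.771 to 1.49, and 0.0628% were called. Both differences of CP-775146 turned positive without its replicate 2, at 0.08 and 0.18, in a fit that lends the lone array the spread of the other groups. Over these 5 pairs the exact permutation p lay between 0.0857 and 0.533, and after adjustment over the 6 pairs between 0.257 and 0.533. The fold intervals of these 5 pairs reach up to 1.73 and down to 0.506, so equal action of the compounds on this probe set was not shown.

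**Figure D3:**
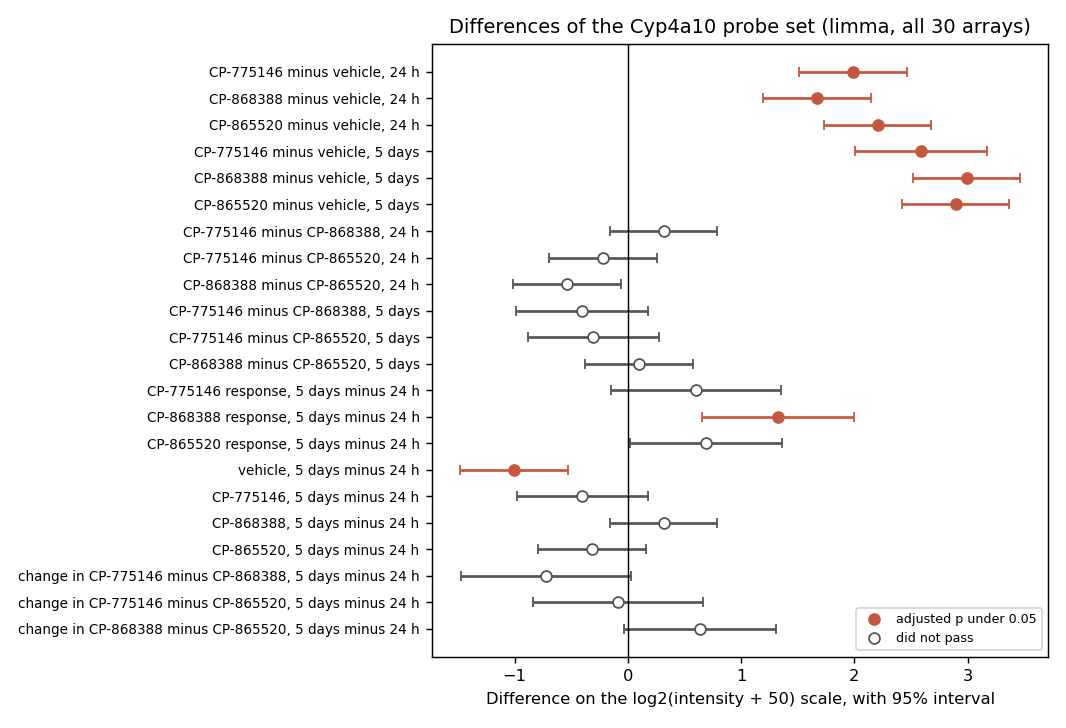
Differences of the Cyp4a10 probe set on the log2(intensity + 50) scale with 95% intervals from limma, 1 row per comparison, filled red where the adjusted p was under 0.05. The 6 rises over vehicle, the vehicle difference between times and the CP-868388 change in response passed, and no pair of compounds did.

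Vehicle livers were lower at 5 days than at 24 h. The mean went from 1225 to 551, a ratio of 0.450, and the log2 difference was -1.01 ± 0.23 (SE, n = 4 each, limma adjusted p = 0.00320). This ranked 7958 of 7963 from the top, among the largest falls, in a comparison that called 11.5% of all probe sets lower. The arrays overlapped, because the 24 h replicate at 569 lay below the 5-day replicate at 711, and the exact permutation p was 0.0571, or 0.114 after adjustment over the 4 comparisons between times. Fitted on the vehicle groups alone, the call was lost (adjusted p = 0.0889).

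Another feature of the arrays changed with time. The 18S control read 261 to 452 on the 24 h vehicle arrays and 1660 to 1919 on the 5-day vehicle arrays. It read 117 to 554 on the compound arrays at 24 h and 243 to 1680 at 5 days. The part of this in the vehicle difference was not tested. Replicate 4 of vehicle at 24 h, which had the low Cyp4a10 value, read 261, the lowest of the vehicle arrays.

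The compound groups did not pass a test between times. CP-775146 changed by -0.40 from 24 h to 5 days (95% interval -0.98 to 0.18, limma adjusted p = 0.333), CP-868388 by 0.32 (-0.16 to 0.79, 0.474) and CP-865520 by -0.32 (-0.79 to 0.16, 0.330). In these comparisons 26.6%, 8.54% and 31.7% of all probe sets were called. The exact permutation p was 0.400, 0.0857 and 0.0571, or 0.400, 0.114 and 0.114 after adjustment over the 4 comparisons between times. CP-775146 at 5 days rests on 2 arrays, and without replicate 2, at 2500, its change was 0.08. That array had an 18S control reading of 1680 and a Gapdh ratio of -0.09, and replicate 1 had 1230 and 0.20. Their part in the low value was not tested.

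The response to CP-868388 was larger at 5 days than at 24 h by 1.32 ± 0.33 (SE, 95% interval 0.65 to 1.99, limma adjusted p = 0.0215), in a test of the difference itself that called 2.51% of all probe sets higher. This change is made of the vehicle difference of -1.01 and the compound's own difference of 0.32, so most of it came from the lower vehicle level at 5 days. The call was lost without vehicle replicate 1 (adjusted p = 0.0527) or 3 (0.0525) at 24 h, vehicle replicate 2 at 5 days (0.0560) or CP-868388 replicate 2 at 5 days (0.0532), with values between 1.13 and 1.23. It was also lost with the integrity covariate (1.16, 0.131), without the 3 arrays with a low Gapdh ratio (1.20, 0.127) and when the other groups were left out of the fit (0.0799).

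The same change was 0.60 ± 0.36 under CP-775146 (SE, limma adjusted p = 0.339) and 0.69 ± 0.33 under CP-865520 (0.145), and neither passed. Of all probe sets 4.81% and 17.3% were called in these comparisons. The CP-775146 value turned on single arrays, at 0.12 without its replicate 1 at 5 days, 1.08 without its replicate 2 at 5 days and 0.92 without vehicle replicate 4 at 24 h, and passed in none of these fits. Without vehicle replicate 4 at 24 h the CP-865520 value was 1.00 and passed (adjusted p = 0.0148). All 3 changes hold the same vehicle difference.

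Whether the compounds differed in their change over time was tested directly, in contrasts from which the vehicle arrays drop out. The CP-868388 minus CP-865520 difference went from -0.54 at 24 h to 0.10 at 5 days, a shift of 0.64 ± 0.33 (SE, 95% interval -0.03 to 1.31, limma adjusted p = 0.178), and 18.8% of all probe sets were called. The CP-775146 minus CP-868388 difference shifted by -0.72 ± 0.36 (-1.47 to 0.03, 0.216), where 9.48% were called. For CP-775146 minus CP-865520 the shift was -0.08 ± 0.36 (-0.83 to 0.66, 1.00). In that last contrast limma called 0 probe sets, or 0%, and 527 had an unadjusted p under 0.05. When the groups outside the comparison were left out of the fit the first shift passed (adjusted p = 0.0380), and without CP-775146 replicate 1 at 5 days the second did (-1.20, 0.0424).

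**Figure D4:**
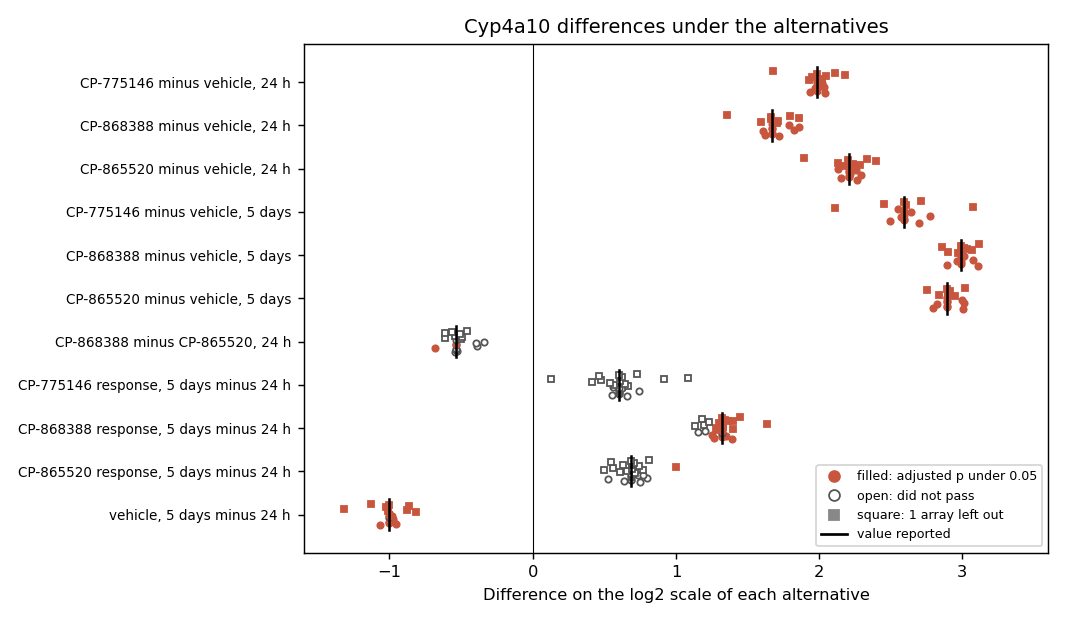
Log2 differences of the Cyp4a10 probe set under each alternative setting, with 1 point per setting, filled red where the adjusted p was under 0.05 and square where 1 array was left out, and a black line at the value reported. The 6 rises over vehicle are filled at every point, and the CP-868388 change in response is open at 7 of its 27.

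The probe sets closest to Cyp4a10 in pattern were sought among 6199 others that lay above the floor on at least 15 arrays, by Pearson's r over all 30 arrays on the log2(intensity + 50) scale. The 2 most alike in pattern were 99559_AT (r = 0.97) and 99571_AT (r = 0.96), for which no gene is named here. Points share their array, and most of each r comes from the contrast of vehicle with compound. Over the 22 compound arrays alone r was 0.59 and 0.22, and over the 8 vehicle arrays 0.96 and 0.86. In all, 146 probe sets had an r of at least 0.8 and 45 an r of -0.8 or lower.

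Like Cyp4a10, 99559_AT was lowest among the compounds at 24 h under CP-868388, at 2941 ± 759 (SD, n = 4), against 4282 ± 281 under CP-775146 and 4341 ± 546 under CP-865520. Its vehicle means were 1144 ± 290.3 at 24 h and 754 ± 74.5 at 5 days, also in the order seen for Cyp4a10. On replicates 1 to 4 of CP-868388 at 24 h, 99559_AT read 2779, 3221, 1983 and 3780. The pyruvate carboxylase ratio of those arrays, low against vehicle, was -2.89, -2.39, -3.72 and -2.02, in the same order. Cyp4a10 and 99571_AT followed that order except that replicate 2 lay above replicate 4. The Gapdh ratio gave the same order as the pyruvate carboxylase ratio, while the actin ratio was lowest on replicate 1 (-1.36). In CP-775146 and CP-865520 at 24 h neither 99559_AT nor Cyp4a10 kept the order of the pyruvate carboxylase ratio. Under CP-865520, replicate 4 held the lowest ratio of its group (-2.67), the lowest 99559_AT reading (3776) and the highest Cyp4a10 reading (6393). The part of RNA integrity in the dip was not tested. The other, 99571_AT, went from 7800 ± 1818 under vehicle at 24 h to between 16232 and 16522 under the compounds, with no drop under CP-868388 of the size seen in Cyp4a10. The patterns most opposite were those of 95350_AT (r = -0.94) and 92835_AT (r = -0.93). The first read 3634 ± 395 under vehicle at 24 h and 4399 ± 201 at 5 days, and between 1467 and 1931.5 under the compounds. Its highest compound mean, 1931.5, was that of CP-868388 at 24 h. The second was at 983.5 ± 204 (SD, n = 4) under CP-868388 at 24 h, above CP-775146 at 625 ± 61.3 and CP-865520 at 645 ± 33.1. On replicates 1 to 4 of that CP-868388 group 92835_AT read 1101, 822, 1210 and 801, the reverse of the order of the pyruvate carboxylase ratio, while 95350_AT followed neither order. No test of these probe sets is given, since they were picked for their likeness on these arrays.

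**Figure D5:**
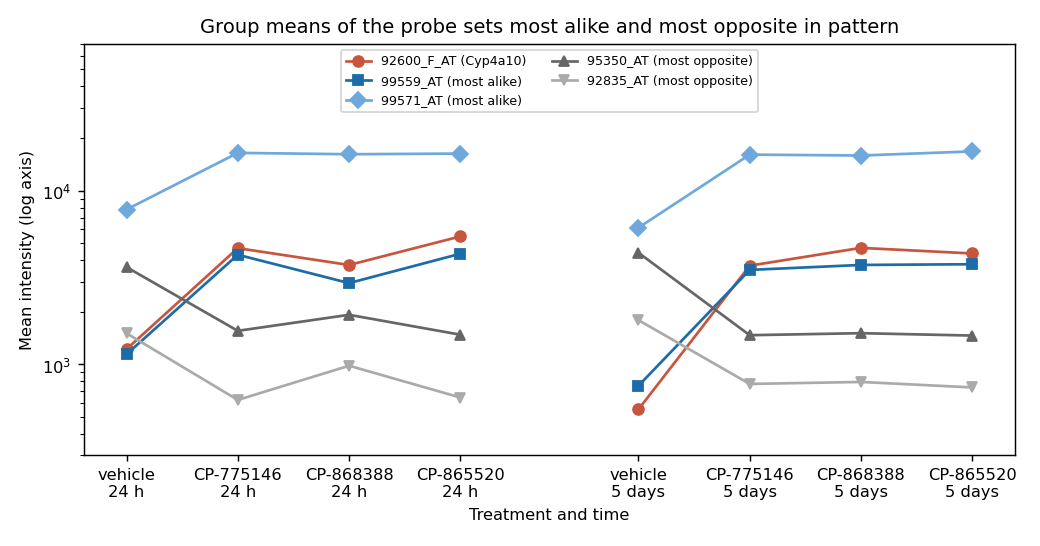
Mean intensity by group, on a log axis, of the Cyp4a10 probe set, the 2 probe sets most alike in pattern and the 2 most opposite. Cyp4a10 and 99559_AT both dip at CP-868388 among the 24 h compounds, at 3739 and 2941, where 95350_AT and 92835_AT peak at 1931.5 and 983.5. The arrays of that group also had low RNA integrity ratios, whose part was not tested.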

How the data were processed

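The Cyp4a10 probe set is 92600_F_AT. Intensities, 1 per probe set and array on a linear scale, were used as deposited by the authors; MAS5 is named in the submitters' processing notes, while its version, its scaling target and the origin of the floor of 50 are not stated there. All 30 columns were matched by sample accession. Values were analysed as log2(intensity + 50) without further normalization. Probe sets other than controls were kept if above 50 on at least 2 arrays (7963). Group means were fitted to all 30 arrays with limma 3.58.1 in R 4.3.3 (lmFit, eBayes with trend), two-sided, with Benjamini-Hochberg adjustment over all 7963, and the threshold was an adjusted p of 0.05. The fit was also run on simulated data in which each probe set had the same spread in all groups. That run does not cover the uneven spread of the Cyp4a10 probe set. Exact permutation tests used scipy 1.17.1.

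The probe set, comparisons and alternatives were chosen with earlier results of these data known, and the 6 comparisons of compounds between times were added after its values were seen. Each array was taken as 1 mouse, which the design text's count of mice gives; p-values measure the spread between these arrays, and the number of arrays limits precision. Named by rule were the Cyp4a10 probe set and the 2 most alike and most opposite in Pearson's r. Planned lists of PPAR-alpha targets and cell type markers need gene symbols and were not applied. Same-numbered arrays were not paired.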

Additional observations from a re-analysis of the deposited data

Results flagged for a closer look

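The change of the CP-868388 response from 24 h to 5 days, 1.32 on the log2(intensity + 50) scale (limma adjusted p = 0.0215), was singled out because the effect of 1 contrast differed between the times by a test of the difference itself. Its adjusted p ran from 0.000620 to 0.131 over 27 alternatives, of which 20 kept the call. No array stood apart in its group by Dixon's criterion in the 7 groups of 4, and the 24 h vehicle arrays, although spread widely, had none either. With 4 arrays the criterion has little power, since it flags an array only if the others lie close together by comparison.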

How the results depend on the processing

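All 6 rises over vehicle kept their direction and their call in each of 112 alternatives, with the highest adjusted p at 0.0102. This count includes settings that could not move the value: other filters, eBayes without trend and the fit without the other groups. Leaving out the arrays with a low Gapdh ratio took arrays only from CP-868388 and CP-865520 at 24 h. Leaving out 1 array moved the 6 rises between 1.67 and 2.18, 1.36 and 1.86, and 1.89 and 2.40 at 24 h (CP-775146, CP-868388, CP-865520), and between 2.11 and 3.07, 2.85 and 3.11, and 2.76 and 3.02 at 5 days. Over all 22 comparisons 434 of 452 alternatives kept direction and side of the threshold. Without the other groups in the fit, values stay and the SE changes: CP-868388 minus CP-865520 at 24 h (-0.54) passed at 0.0432 and its shift between times (0.64) at 0.0380, while the CP-868388 change in response (1.32) and the vehicle difference (-1.01) were lost at 0.0799 and 0.0889. Quantile normalization gave -0.68 (passed, 0.0481) for that pair and turned the shift of CP-775146 minus CP-865520 to 0.072. The integrity covariate gave 1.16 and leaving out the arrays with a low Gapdh ratio 1.20 for the CP-868388 change, both lost; the cause was not tested. With 1 array left out, the CP-868388 change ran from 1.13 to 1.64, the CP-865520 change from 0.50 to 1.00 and the CP-775146 change from 0.12 to 1.08. CP-775146 minus CP-868388 at 5 days ran from -0.88 to 0.077, CP-775146 minus CP-865520 from -0.78 to 0.18, and CP-775146 between times from -0.88 to 0.077. Its shift against CP-868388 ran from -1.20 to -0.24 and against CP-865520 from -0.56 to 0.39. Centring each array on the median of the probe sets that no array had at the floor moved the median log2 difference of all probe sets from vehicle by up to 0.15 at 24 h (CP-868388) and 0.18 at 5 days (CP-775146), and called Cyp4a10 in the same comparisons. Same-numbered arrays share only a number: their deviations correlated between -0.37 and 0.44, and with the replicate number as a block the rise under CP-775146 at 5 days was 2.55 and no call changed.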

Other observations

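The low 24 h vehicle array was low in the probe sets most like Cyp4a10 as well. On vehicle replicates 1 to 4 at 24 h, 99559_AT read 1279, 1222, 1359 and 717, and at 5 days 726, 711, 713 and 865. Replicate 4 at 24 h thus lay within the 5-day vehicle range, as it did for Cyp4a10. In 99571_AT the 24 h arrays read 8158, 9164, 8733 and 5144, and replicate 4 was below all 4 arrays of the 5-day vehicle group (5638, 5867, 6207 and 6789). The most opposite probe set, 95350_AT, read 3637, 3362, 3346 and 4192 at 24 h and 4205, 4252, 4615 and 4523 at 5 days, so replicate 4 was its highest 24 h vehicle array. In 92835_AT the vehicle arrays read 1627, 1282, 1437 and 1702 at 24 h and 1529, 2175, 1864 and 1632 at 5 days. There replicate 4 was again the highest at 24 h, but replicate 1 lay within the 5-day range as well. These probe sets were chosen for their likeness over the same arrays, so their values are no separate support, and a record of feeding, litter or time of dissection is not among the labels used here.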
